A study of Mus musculus with 6 samples.

Results

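A set of 10 genes that mark club cells and other secretory cells of the airway was followed in RNA from mouse lung epithelium: Scgb1a1, Scgb3a1, Scgb3a2, Cbr2, Cyp2f2, Muc5b, Muc5ac, Bpifa1, Bpifb1 and Reep6. They were chosen by gene symbol, and all 10 had a row among the 52550 genes of the count table. All 10 also passed the filter on low counts that left 18849 genes for testing. The series asks what loss of Grp78, a chaperone of the endoplasmic reticulum (ER), does to alveolar type II (AT2) cells, which make surfactant.

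Both groups were C57BL/6 mice carrying a tamoxifen-inducible Cre (creERT2) at 1 allele of the surfactant protein C gene and floxed Grp78 alleles. The 3 libraries labelled Grp78KO came, by their genotype label, from mice given tamoxifen, and the 3 Control libraries from mice not given it, so tamoxifen and the deletion cannot be told apart. A further label gives 10 days since tamoxifen for each sample, which for the controls contradicts their genotype. Ages are not in the labels. Cells were released from lung with dispase and sorted magnetically as CD45-negative and EPCAM-positive. Surfactant protein C expression drives the Cre, and EPCAM is found on airway as well as alveolar epithelium. Whether each library is a separate animal is not stated; the p-values rest on the variation among libraries, part of which may be technical.

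Club cells are the dome-shaped secretory cells that line the small airways of the mouse. They release secretoglobins into the airway fluid, break down inhaled chemicals with cytochrome P450 and carbonyl reductase enzymes, and act as progenitors of airway epithelium after injury. Goblet and serous cells of larger airways release gel-forming mucins and BPI-fold proteins, which take part in mucus clearance and innate defence.

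The libraries held 110770711 to 149520306 counts. Hspa5, which encodes Grp78, averaged 7416 ± 3125 CPM (counts scaled to library size with TMM factors) in the libraries labelled Grp78KO and 1189 ± 232 CPM in controls (SD, n = 3 each), against what the label names. Counts per gene do not separate the floxed exons, so recombination cannot be checked from them. Sftpc, which encodes surfactant protein C and defines AT2 cells, averaged 16188 ± 2156 CPM in the libraries labelled Grp78KO and 48723 ± 5647 CPM in controls. Epcam, which encodes the sorting marker, averaged 153 ± 7.39 CPM in the libraries labelled Grp78KO and 192 ± 6.92 CPM in controls. The libraries numbered 3 stood apart from the others of their group. Deviations from the group mean correlated at -0.895 and -0.754 between Control 3 and Controls 1 and 2, and at -0.932 and -0.893 between Grp78KO 3 and Grp78KO 1 and 2 (across genes, which are not independent replicates; deviations within a group sum to 0). Results that rest on these libraries are given with and without them.

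Of the airway secretory genes, Cbr2 alone passed the test between groups. Their levels ran from Scgb1a1, among the most abundant genes of every library, to Muc5ac, which was low. In bulk RNA, fewer cells of a type and less RNA per cell cannot be told apart. Together the 10 genes took 4.11%, 4.38% and 4.20% of all counts in Grp78KO 1, 2 and 3, against 5.71%, 5.64% and 3.64% in Controls 1, 2 and 3. Most of this was Scgb1a1, with 27824 of the 38692 CPM summed over the 10 genes in Grp78KO 1 and 48320 of 65740 in Control 1. Cbr2 was lower in the libraries labelled Grp78KO, and none of the 10 was higher. Across all genes tested, 36.8% were called at an edgeR adjusted p under 0.05, 18.8% lower and 18.0% higher. With only 10 genes, 1 lower and 0 higher calls are not read as a difference from those shares. At an unadjusted p under 0.05 the count was likewise 1 lower and 0 higher, and DESeq2 and limma-voom also called 0 higher. The groups did not overlap for 1 of the 10 genes, against 51.6% of all genes tested, 26.6% with every library labelled Grp78KO below every control and 25.0% above. The median log2 fold of the 10 genes was -0.17, and that of all tested genes 0.02.

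**Figure D1:**
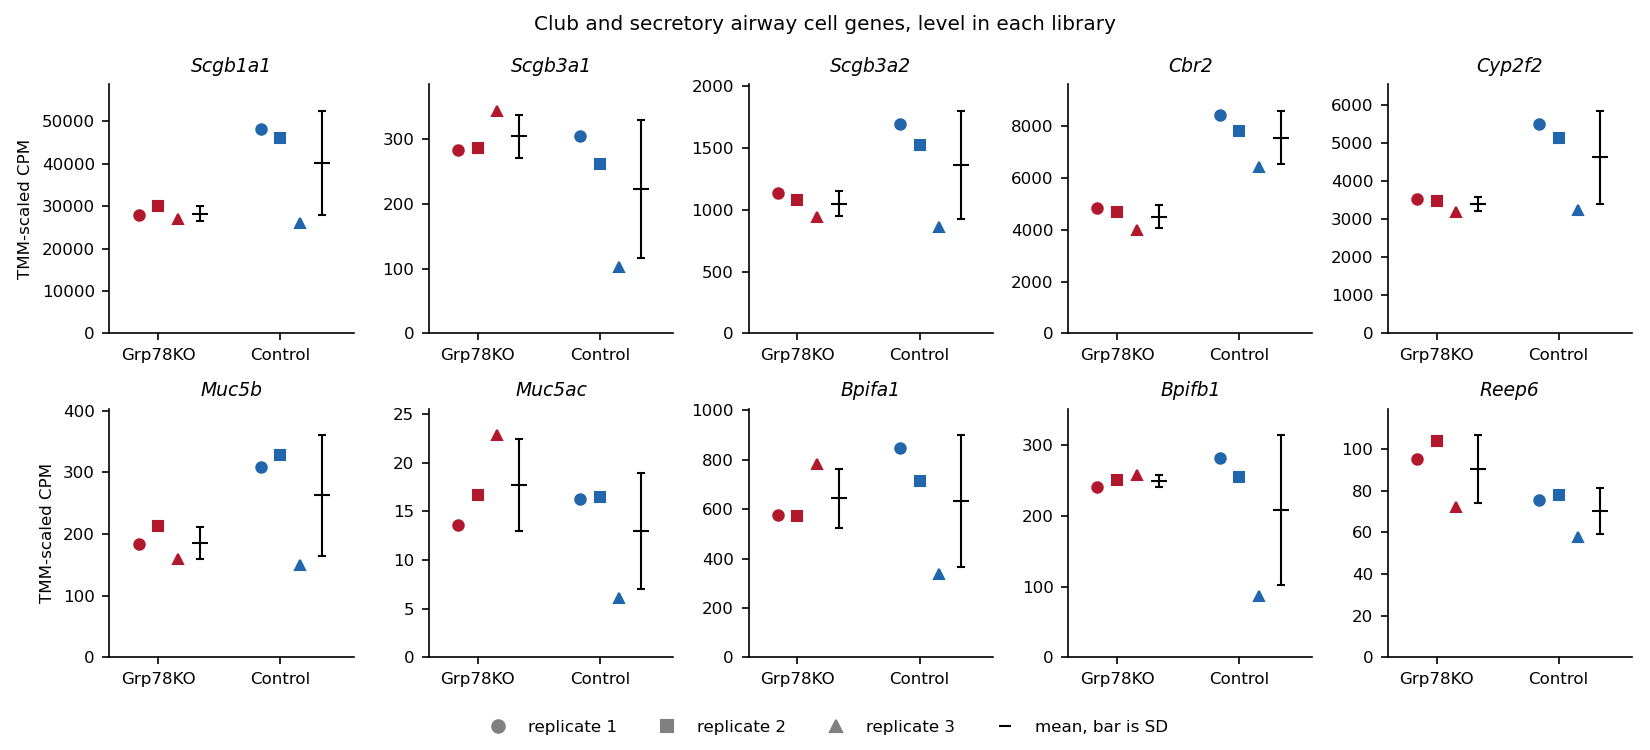
TMM-scaled CPM of each of the 10 genes in the 3 libraries labelled Grp78KO (red) and the 3 Control libraries (blue); symbols mark the replicate number, and the black bar is the mean with its SD. Control 3 (blue triangle) is the lowest control in all 10 panels, and the groups are apart only for Cbr2.

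Scgb1a1 encodes the club cell secretory protein, the main secretoglobin of the mouse airway (chromosome 19, 9083636 to 9087958, minus strand, mm10). It had 27824, 30121 and 26908 CPM in Grp78KO 1, 2 and 3, against 48320, 46139 and 26131 CPM in Controls 1, 2 and 3. Controls 1 and 2 were high, while Control 3 lay below all 3 libraries labelled Grp78KO, so the groups overlapped. Its log2 fold came to -0.51 (SE 0.257, 95% interval -1.10 to 0.09, edgeR adjusted p = 0.156). By count, Scgb1a1 was the most abundant gene in each of the 3 libraries labelled Grp78KO, and ranked 2, 2 and 4 in Controls 1, 2 and 3. Its counts amounted to 179.5%, 208.3% and 144.7% of the Sftpc counts in Grp78KO 1, 2 and 3, against 88.1%, 96.9% and 59.8% in Controls 1, 2 and 3. The groups did not overlap in this proportion, whose Sftpc part was itself lower in the libraries labelled Grp78KO.

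Scgb3a2, the secretoglobin of small airways and in mouse a target of the transcription factor NKX2-1 (chromosome 18, 43764289 to 43767399, plus strand), had 1132, 1078 and 937 CPM in Grp78KO 1, 2 and 3, against 1692, 1519 and 863 CPM in Controls 1, 2 and 3. As for Scgb1a1, Control 3 was the lowest of all 6 libraries. Its log2 fold came to -0.37 (SE 0.244, edgeR adjusted p = 0.265). Scgb3a1, a secretoglobin more typical of larger airways (chromosome 11, 49663610 to 49665118, plus strand), had 284, 287 and 344 CPM in Grp78KO 1, 2 and 3, against 305, 263 and 103 CPM in Controls 1, 2 and 3. The libraries labelled Grp78KO lay close together and within or just above Controls 1 and 2, and Control 3 was far below every other library. Its log2 fold came to 0.45 (SE 0.362, edgeR adjusted p = 0.363).

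Cbr2 encodes a carbonyl reductase of mouse lung, described in club cells and also in type II cells (chromosome 11, 120729489 to 120732114, minus strand). It had 4830, 4682 and 3989 CPM in Grp78KO 1, 2 and 3, against 8401, 7815 and 6425 CPM in Controls 1, 2 and 3. Every library labelled Grp78KO lay below every control, and the group means differed by more than the SD of either group. Its log2 fold came to -0.75 (SE 0.169, edgeR adjusted p = 0.0129), and the call ended without Control 2 (edgeR adjusted p = 0.0639). Over 15 alternatives the adjusted p ran from 1.64e-06, by the DESeq2 Wald test, to that edgeR value of 0.0639. Cyp2f2, the club cell cytochrome P450 that activates naphthalene in mice (chromosome 7, 27119909 to 27133660, plus strand), had 3514, 3475 and 3175 CPM in Grp78KO 1, 2 and 3, against 5491, 5129 and 3233 CPM in Controls 1, 2 and 3. Control 3 lay among the libraries labelled Grp78KO, and the other controls above them. Its log2 fold came to -0.45 (SE 0.214, edgeR adjusted p = 0.137). Gm15883, on the opposite strand, shares 274 exonic bases with Cyp2f2, and counts without a stated strand cannot tell their reads apart.

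The gel-forming mucin genes lie side by side on chromosome 7. Muc5b, the mucin of the resting mouse airway (141839070 to 141873084, plus strand), had 184, 213 and 160 CPM in Grp78KO 1, 2 and 3, against 308, 329 and 150 CPM in Controls 1, 2 and 3. Its pattern was that of Scgb1a1, with Control 3 below and Controls 1 and 2 above the libraries labelled Grp78KO (log2 fold -0.50, SE 0.280, edgeR adjusted p = 0.194). Muc5ac, a mucin that airway cells induce in inflammation (141788972 to 141819231, plus strand), was the least abundant of the 10 genes, with 13.6, 16.7 and 22.8 CPM in Grp78KO 1, 2 and 3, against 16.3, 16.5 and 6.08 CPM in Controls 1, 2 and 3. Grp78KO 3 was the highest library and Control 3 the lowest (log2 fold 0.45, SE 0.380, edgeR adjusted p = 0.384).

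Bpifa1 and Bpifb1 encode secreted proteins of the BPI fold family and are neighbours on chromosome 2. Bpifa1, known as SPLUNC1 (154142880 to 154149219, plus strand), had 576, 573 and 780 CPM in Grp78KO 1, 2 and 3, against 849, 714 and 337 CPM in Controls 1, 2 and 3. Both groups spanned much of the same range (log2 fold 0.02, SE 0.319, 95% interval -0.72 to 0.76, edgeR adjusted p = 0.963). Bpifb1, known as LPLUNC1 (154190818 to 154220369, plus strand), had 241, 251 and 258 CPM in Grp78KO 1, 2 and 3, against 282, 256 and 86.6 CPM in Controls 1, 2 and 3. It was the steadiest of the 10 genes across the libraries labelled Grp78KO, with a coefficient of variation of 3.47%, and the most variable across controls, at 51.0% (log2 fold 0.26, SE 0.389, edgeR adjusted p = 0.624).

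Reep6 encodes a protein that shapes ER membranes and is best known from rod photoreceptors of the mouse (chromosome 10, 80329953 to 80336441, plus strand). It had 95.1, 104 and 72.1 CPM in Grp78KO 1, 2 and 3, against 75.5, 78.1 and 57.6 CPM in Controls 1, 2 and 3. Grp78KO 1 and 2 lay above every control and Grp78KO 3 below Controls 1 and 2. Its log2 fold came to 0.36 (SE 0.167, edgeR adjusted p = 0.126); with the replicate number as a block it was 0.36 with an edgeR adjusted p of 0.00654, where 21.9% of all genes were called higher and 22.8% lower. Scaling by library size alone, which called 33.0% of all genes higher and 7.13% lower, also called Reep6 higher (0.62, edgeR adjusted p = 0.0115).

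Promoters were printed for 4 of the genes, to set those with a lower group mean in the libraries labelled Grp78KO (Cyp2f2 and Cbr2) beside those with a higher one (Scgb3a1 and Bpifb1). Of these 4, Cbr2 alone was called with all 6 libraries. Bpifb1 had a log2 fold of 0.26 with all 6 libraries and -0.111 without Control 3. RefSeq sequences (GRCm38.p6) were matched for 5 of the 10 genes, from 250 bases before to 50 after the start, and are given 5′ to 3′ on the gene's strand. Bpifb1 has a further RefSeq start at 154200380, inside the gene, and the window at the gene's own start is printed. Capitals mark any match, on either strand, to the motifs searched, which were TGTTTAC and TGTTTGC (FOXA factors), TCAAGTG (NKX2-1), TTGCNNAA (C/EBP factors), TGATGNAA (ATF4 with C/EBP), TGACGTGG (UPRE), the ERSE (the ER stress element) and TATAAA.
Cyp2f2, chr7:27119705-27120004, plus strand: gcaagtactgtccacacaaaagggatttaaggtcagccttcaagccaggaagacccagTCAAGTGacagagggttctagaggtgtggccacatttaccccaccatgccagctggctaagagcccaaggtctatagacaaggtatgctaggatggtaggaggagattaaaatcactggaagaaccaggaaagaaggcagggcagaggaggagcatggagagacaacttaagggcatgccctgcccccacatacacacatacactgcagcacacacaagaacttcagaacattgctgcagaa
Cbr2, chr11:120731972-120732271, minus strand: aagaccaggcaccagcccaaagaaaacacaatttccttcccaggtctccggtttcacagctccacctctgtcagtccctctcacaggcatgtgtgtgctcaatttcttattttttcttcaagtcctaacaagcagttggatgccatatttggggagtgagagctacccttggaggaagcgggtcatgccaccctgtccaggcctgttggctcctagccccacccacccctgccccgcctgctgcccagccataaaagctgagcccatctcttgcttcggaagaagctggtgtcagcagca
Scgb3a1, chr11:49663345-49663644, plus strand: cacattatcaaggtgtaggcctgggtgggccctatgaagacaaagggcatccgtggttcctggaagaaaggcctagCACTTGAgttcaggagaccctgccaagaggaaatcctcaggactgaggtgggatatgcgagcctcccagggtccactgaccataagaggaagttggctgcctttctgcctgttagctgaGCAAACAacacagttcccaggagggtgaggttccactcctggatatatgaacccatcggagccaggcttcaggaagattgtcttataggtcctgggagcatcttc
Bpifb1, chr2:154190568-154190867, plus strand: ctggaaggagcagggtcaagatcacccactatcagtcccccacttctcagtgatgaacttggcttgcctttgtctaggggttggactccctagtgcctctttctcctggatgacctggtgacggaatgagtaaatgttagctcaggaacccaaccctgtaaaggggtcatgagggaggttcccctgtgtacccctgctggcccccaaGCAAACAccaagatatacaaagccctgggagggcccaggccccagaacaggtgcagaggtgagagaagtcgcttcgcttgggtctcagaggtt
The Cyp2f2 window held the NKX2-1 letters at -192 from the start, and the Scgb3a1 window held them at -174 on the other strand. The Scgb3a1 and Bpifb1 windows both held TGTTTGC on the other strand, at -55 and -43, but the window of the further Bpifb1 start held no match to any motif searched. Of 32851 promoters of the same length, 3.06% held TCAAGTG, 5.07% TGTTTGC, 3.65% TGTTTAC, 10.8% TTGCNNAA, 3.97% TGATGNAA and 13.6% TATAAA. No matches overlapped one another in the 4 windows. The Cbr2 window held none of the letters searched, and the UPRE and ERSE letters were in none of the 4 windows (0.676% and 0.119% of all promoters held them).

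Levels were compared between genes per kilobase of merged exon. Scgb1a1 had 59422 ± 3477 CPM per kilobase in the libraries labelled Grp78KO and 84446 ± 25694 in controls (SD, n = 3 each), the highest of 18194 genes with a length in both groups. Cbr2 followed at rank 11 in both groups, with 3391 ± 338 CPM per kilobase in the libraries labelled Grp78KO and 5687 ± 765 in controls. Then came Cyp2f2 (1673 in the libraries labelled Grp78KO and 2280 CPM per kilobase in controls) and Scgb3a2 (1192 and 1543 CPM per kilobase in the same order of groups). Cyp2f2 lay above Scgb3a2 within each of the 6 libraries, although their ranges across the controls overlapped. Scgb3a1 and Bpifa1 had group means of 373 to 510 CPM per kilobase for Scgb3a1 and 410 to 416 for Bpifa1, and changed places between groups. Within each control Bpifa1 lay above Scgb3a1, and within each library labelled Grp78KO Scgb3a1 lay above Bpifa1. Across libraries their ranges overlapped in both groups. Bpifb1, Reep6, Muc5b and Muc5ac ended the order, and the gel-forming mucins were low per length: Muc5b had 12.4 ± 1.77 CPM per kilobase in the libraries labelled Grp78KO and 17.5 ± 6.54 in controls, and Muc5ac 1.65 ± 0.439 and 1.20 ± 0.554.

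Control 3 was low throughout. It was the lowest control for all 10 genes, whereas 40.2% of all tested genes were lowest there. It stood at 32.2% (Bpifb1) to 79.2% (Cbr2) of the mean of Controls 1 and 2, while the median tested gene stood at 100%. The coefficient of variation was larger among controls than among the libraries labelled Grp78KO for 9 of the 10 genes, the exception being Reep6, and for 47.0% of all tested genes. For Scgb1a1 it was 5.85% in the libraries labelled Grp78KO and 30.4% in controls.

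Without Control 3, 5 of the 10 genes were called lower in the libraries labelled Grp78KO, where 16.2% of all tested genes were: Muc5b (log2 fold -0.79, edgeR adjusted p = 0.0110), Cbr2 (-0.85, adjusted p = 0.0115), Cyp2f2 (-0.65, adjusted p = 0.0171), Scgb1a1 (-0.74, adjusted p = 0.0203) and Scgb3a2 (-0.62, adjusted p = 0.0216). Scgb3a1, Muc5ac, Bpifa1, Bpifb1 and Reep6 were not called, with log2 folds of -0.29 (Bpifa1) to 0.23 (Reep6). Without both libraries numbered 3, Bpifa1 was called lower as well (-0.44, edgeR adjusted p = 0.00164), making 6, and Reep6 higher (0.38, edgeR adjusted p = 0.000855), where 27.7% and 28.3% of all tested genes were called lower and higher. Control 3 is 1 of 3 control libraries, and nothing in the labels sets it apart. It was the lowest control for all 10 genes, so leaving it out raised every control mean. With Control 1 or any 1 library labelled Grp78KO left out instead, Cbr2 alone was called lower, and without Control 2 none was.

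**Figure D2:**
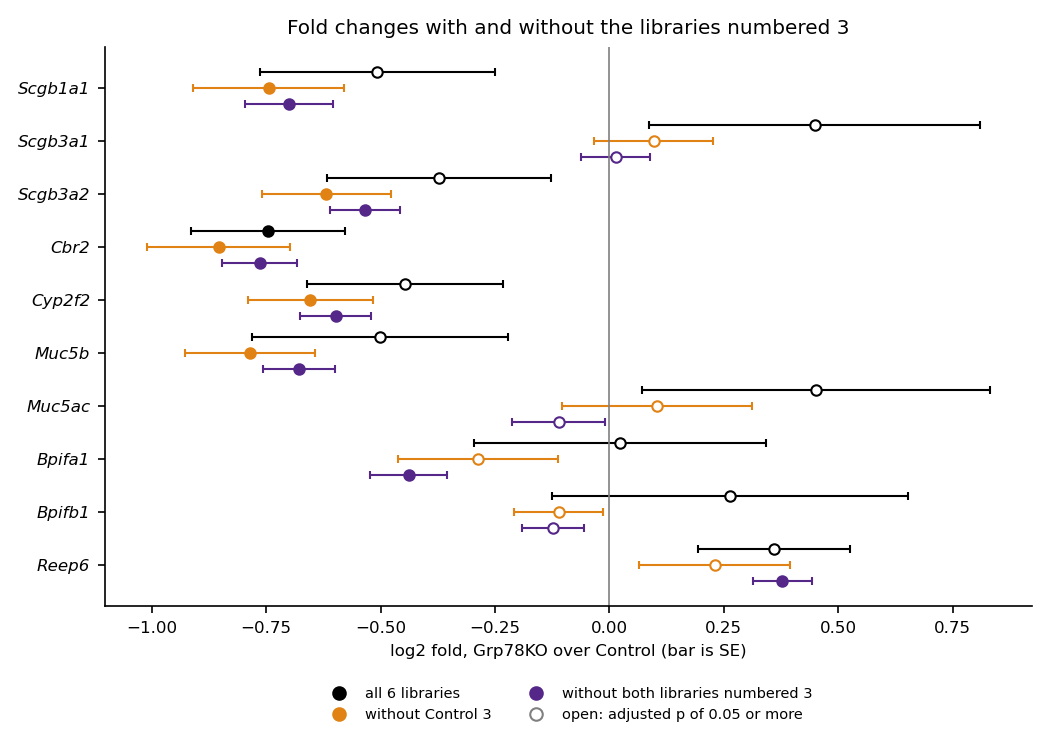
Log2 fold of each gene, libraries labelled Grp78KO over Control, with its SE, from all 6 libraries (black), without Control 3 (orange) and without both libraries numbered 3 (purple); filled points have an edgeR adjusted p under 0.05. Only Cbr2 is filled with all 6 libraries, and 5 genes are filled on the left without Control 3. Control 3 is the lowest control for each gene, and other omissions are not drawn.

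Each gene was also set against the Scgb1a1 counts of the same library, a comparison chosen after seeing the data. Cyp2f2 counts were 12.6%, 11.5% and 11.8% of Scgb1a1 counts in Grp78KO 1, 2 and 3, against 11.4%, 11.1% and 12.4% in Controls 1, 2 and 3. Scgb3a2 lay at 3.48% to 4.07% in the libraries labelled Grp78KO and 3.29% to 3.50% in controls, and Muc5b at 0.594% to 0.706% in the libraries labelled Grp78KO and 0.575% to 0.713% in controls. For these 3 genes the groups overlapped, and Control 3 lay apart from the other controls far less in proportion than in level. Cbr2 was 17.4%, 15.5% and 14.8% of Scgb1a1 in Grp78KO 1, 2 and 3, against 17.4%, 16.9% and 24.6% in Controls 1, 2 and 3, with Control 3 the highest.

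The proportion to Scgb1a1 was higher in every library labelled Grp78KO than in any control for Scgb3a1, Muc5ac, Bpifa1, Bpifb1 and Reep6, and overlapped for the other 4 genes. Over all other tested genes, 31.8% were above and 3.26% below every control in this measure, and the median log2 fold was 0.42, since Scgb1a1 itself had a lower mean in the libraries labelled Grp78KO. Scgb3a1 was 1.02%, 0.952% and 1.28% of Scgb1a1 in Grp78KO 1, 2 and 3, against 0.631%, 0.569% and 0.392% in Controls 1, 2 and 3. An edgeR fit with Scgb1a1 counts as the scale called Scgb3a1 (log2 fold 1.03, SE 0.310, edgeR adjusted p = 0.00904), Muc5ac (1.03, adjusted p = 0.0261) and Bpifb1 (0.85, adjusted p = 0.0386) higher, where 15.1% of all genes were higher and 1.80% lower (16.9% in all). Bpifa1 (0.58, edgeR adjusted p = 0.168) and Reep6 (0.81, adjusted p = 0.0662) were not called in that fit. With the replicate number as a block, Reep6 was called higher as well (0.81, edgeR adjusted p = 0.0266), making 4 of 9, where 22.8% of all genes were higher. Leaving out any 1 library labelled Grp78KO left 0 of the 9 genes called, and leaving out Control 1 or Control 2 left Scgb3a1 alone. Without Control 3, 4 of the 9 were higher, where 62.6% of all genes were. Without both libraries numbered 3, 5 of the 9 were higher, where 68.5% of all genes were. With only 9 genes, neither count is read as a difference from the share of the whole table.

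**Figure D3:**
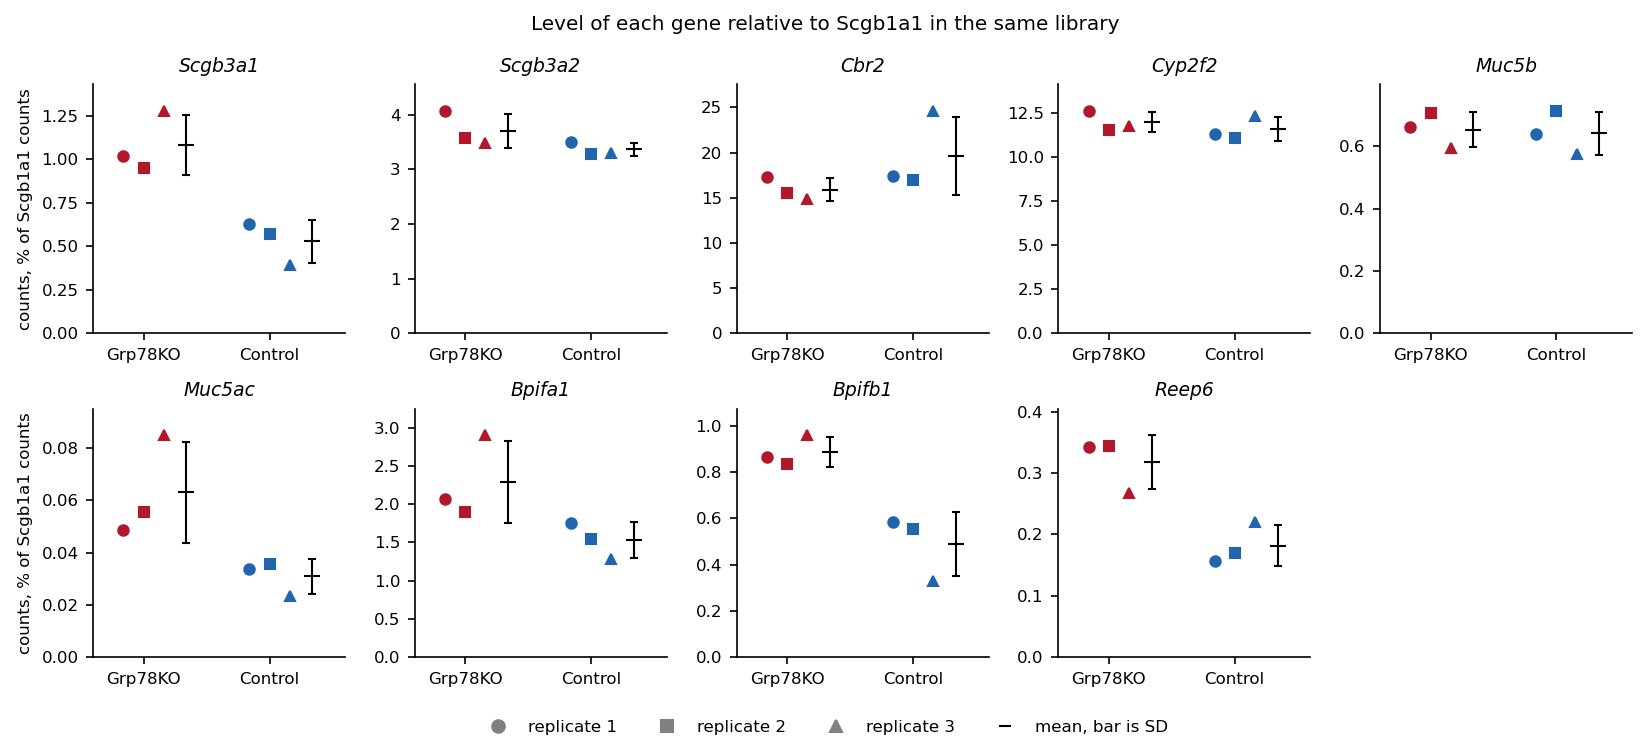
Counts of the 9 other genes as a percentage of the Scgb1a1 counts in the same library, for libraries labelled Grp78KO (red) and Control (blue), with the mean and SD in black. Scgb3a1, Muc5ac, Bpifa1, Bpifb1 and Reep6 are apart between groups, while Scgb3a2, Cyp2f2 and Muc5b overlap.

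Of 26 other genes known from club cells, 6 were lower and 1 higher in the libraries labelled Grp78KO, with a median log2 fold of -0.22. In the same fit, 18.8% of all tested genes were lower and 18.0% higher. The lowest adjusted p values among the falls were those of Pon1, a lactonase gene (log2 fold -1.22, edgeR adjusted p = 0.00145), Ces1d, a carboxylesterase gene (-0.86, adjusted p = 0.00345), Aldh1a7, an aldehyde dehydrogenase gene (-0.62, adjusted p = 0.00367), and Iyd, an iodotyrosine deiodinase gene (-0.58, adjusted p = 0.0108). Cyp2a5, a cytochrome P450 gene, was the 1 that rose (0.80, edgeR adjusted p = 0.0125). Aldh1a1, the retinaldehyde dehydrogenase, had 1088 ± 33.9 CPM in the libraries labelled Grp78KO and 1413 ± 305 CPM in controls (edgeR adjusted p = 0.130). Without Control 3, 12 of the 26 were lower and 1 higher, where 16.2% of all tested genes were lower and 14.1% higher. Without Control 2, 4 of the 26 were lower, but the share of all tested genes called also varied with the library left out. With the replicate block, 7 were lower and 4 higher, where 22.8% and 21.9% of all tested genes were.

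Among 18 other genes of goblet and serous cells, 12 were tested. Of these, 3 rose and 2 fell, where 18.0% and 18.8% of all tested genes did. The number higher was 1 without Control 1 or without Grp78KO 2, and 5 with library-size scaling (33.0% of all tested genes). The number lower was 6 without both libraries numbered 3 (27.7% of all tested genes). Ltf, which encodes the iron-binding serous protein lactoferrin, had 109, 114 and 128 CPM in Grp78KO 1, 2 and 3, against 49.1, 45.0 and 18.9 CPM in Controls 1, 2 and 3. All 3 libraries labelled Grp78KO lay above all controls (log2 fold 1.64, SE 0.330, edgeR adjusted p = 0.00974). Agr2, a disulfide isomerase gene needed for mucin folding in mice, was also higher, with 6.70, 6.46 and 5.41 CPM in Grp78KO 1, 2 and 3, against 3.65, 3.86 and 1.78 CPM in Controls 1, 2 and 3 (edgeR adjusted p = 0.0280). The membrane mucin gene Muc4 was higher by 0.53 on the log2 scale (edgeR adjusted p = 0.0250). Bpifb5 (log2 fold -1.76, edgeR adjusted p = 0.00111) and the chloride cotransporter gene Slc12a2 (-1.14, adjusted p = 0.00127) fell. Clca1, a secreted protein gene of goblet cells, had 35.5, 37.4 and 108 CPM in Grp78KO 1, 2 and 3, against 132, 120 and 12.9 CPM in Controls 1, 2 and 3, so each group held 1 library, numbered 3, far from the others (edgeR adjusted p = 0.625).

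Of 20 transcription factor genes that act in airway and alveolar epithelium, 11 fell and 1 rose, with a median log2 fold of -0.36. Of all tested genes, 18.8% fell and 18.0% rose. Scaling by library size alone moved the median of all genes to 0.27. With that scaling, 6 of the 20 were lower and 3 higher (7.13% and 33.0% of all tested genes). Without Control 2, 7 of the 20 were lower, and none was higher without Control 2, Grp78KO 1 or Grp78KO 2. The share of all tested genes called also varied with the library left out. Those with the lowest adjusted p were Cebpa (-1.20, edgeR adjusted p = 0.000680), Foxa1 (-0.64, adjusted p = 0.00305), Id2 (-0.93, adjusted p = 0.00340) and Nkx2-1 (-0.92, adjusted p = 0.00382). Nkx2-1, Foxa1 and Cebpa are also expressed in AT2 cells, so their counts are not specific to the airway, and Cebpa is also among the AT2 markers. Spdef, the factor of goblet cell differentiation, averaged 2.84 ± 0.102 CPM in the libraries labelled Grp78KO and 5.06 ± 1.06 CPM in controls (edgeR adjusted p = 0.0117). Sox2, the factor that marks airway as against alveolar epithelium, was higher by 0.39 on the log2 scale (edgeR adjusted p = 0.0257), with 46.3, 45.2 and 50.3 CPM in Grp78KO 1, 2 and 3, against 38.6, 38.3 and 31.1 CPM in Controls 1, 2 and 3. Its call ended without any 1 of Control 2, Grp78KO 1 and Grp78KO 2.

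Marker genes of other cell types were read from the same fit, including types that the sort was not set to collect. Ciliated cell markers summed to 4780 to 5578 CPM in the libraries labelled Grp78KO and 3830 to 4796 CPM in controls, and Control 3 was again the lowest library. Of 20 such markers, 11 rose and none fell (0 lower at an unadjusted p under 0.05, and 0 lower by limma-voom and DESeq2), among them Mcidas (log2 fold 1.79, edgeR adjusted p = 0.000857), Tmem212 (0.64, adjusted p = 0.00751), Cfap126 (0.58, adjusted p = 0.00764) and Tuba1a (0.60, adjusted p = 0.0134). Foxj1, the master factor of ciliated cells, had 426, 400 and 408 CPM in Grp78KO 1, 2 and 3, against 495, 497 and 242 CPM in Controls 1, 2 and 3. Its means were 411 ± 13.2 CPM in the libraries labelled Grp78KO and 411 ± 147 CPM in controls, so their likeness rests on Control 3. Of the 20 ciliated markers, 11 were higher where 18.0% of all tested genes were. That count fell to 7 without Control 3 (14.1% of all tested genes), to 4 without Control 2, and to 3 and 6 without Grp78KO 1 and 2. The share of all tested genes called also varied with the library left out, so these falls are not read as a trait of the ciliated markers. Without both libraries numbered 3, 12 were higher and 1 lower (28.3% and 27.7% of all tested genes).

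AT2 markers summed to 63362 to 82384 CPM in the libraries labelled Grp78KO, against 165398 to 189564 CPM in controls, and all 22 were lower. With all 6 libraries, 18.8% of all tested genes were lower and 18.0% higher. Fibroblast markers summed to 2394 to 2518 CPM in the libraries labelled Grp78KO and 1062 to 1464 CPM in controls, with 14 of 14 higher. That count was 8 without Control 2, 9 without Grp78KO 1, and 10 without Control 1, without Grp78KO 2 or with no low-count filter. Of all tested genes, 36.8% were called in either direction with all 6 libraries and 21.7% with no low-count filter. That share also varied with the library left out, so the smaller counts are not read as a trait of the fibroblast markers. Endothelial markers, of which 1 of 10, Vwf, was higher, summed to 492 to 850 CPM in the libraries labelled Grp78KO and 497 to 546 CPM in controls. Without Grp78KO 3, 8 of the 10 were higher, where 22.0% of all tested genes were, and leaving out any other single library left 0. Leukocyte markers summed to 139 CPM in Grp78KO 3 and 14.3 to 23.8 CPM in the other 5 libraries, with Mrc1 and C1qc, genes of macrophages, called higher; C1qc had 12.1 CPM in Grp78KO 3 and at most 0.272 CPM elsewhere. No leukocyte marker was called higher without any 1 control library, with limma-voom or with no low-count filter, and 1 was with DESeq2. Without Grp78KO 3, 2 were higher and 1 lower (22.0% and 22.4% of all tested genes), and with the replicate block 6 were higher (21.9%). Basal cell markers summed to 4.01 to 4.65 CPM in the libraries labelled Grp78KO and 2.33 to 4.89 CPM in controls, with Ngfr and Snai2 higher among 7 tested. Of 10 neuroendocrine markers, Calca was higher and Syp and Scg5 lower, and of 9 tested tuft cell and ionocyte markers, Avil was higher and Gnat3 and Cftr lower. The basal calls numbered 0 with genes under a mean of 1 CPM removed, and no neuroendocrine marker was called without Control 2 or without Grp78KO 2. The ionocyte factor Foxi1 had 0 counts in all 6 libraries. The part of these shifts in the levels of the airway secretory genes was not tested.

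**Figure D4:**
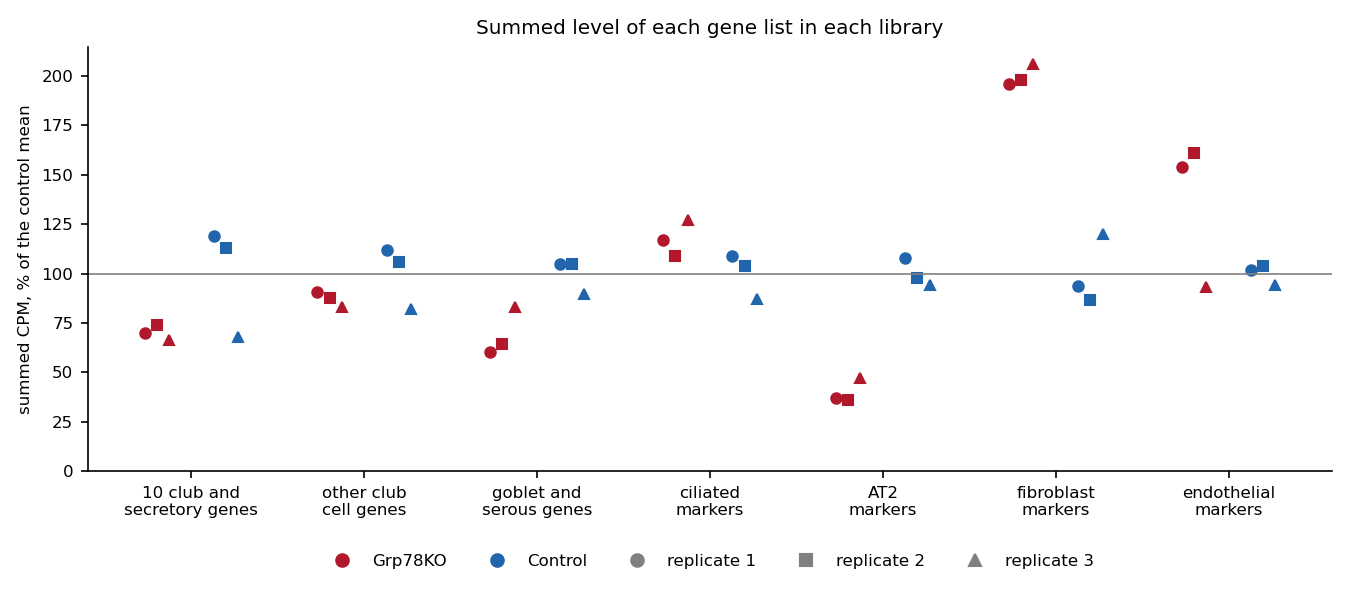
Summed CPM of 7 gene lists in each library as a percentage of the control mean, libraries labelled Grp78KO (red) beside Control (blue). The 10 club and secretory genes stand at 66.5% to 74.0% in the libraries labelled Grp78KO and at 119%, 113% and 67.8% in Controls 1, 2 and 3, while AT2 markers stand at 36.1% to 47.0% in the libraries labelled Grp78KO. The sum of the 10 genes is mostly Scgb1a1, while Scgb3a1, Muc5ac, Bpifa1, Bpifb1 and Reep6 had positive log2 folds, none called. The goblet and serous sum is led by Slc12a2, which fell, while Ltf, Agr2 and Muc4 rose.

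The genes most like Scgb1a1 were ranked by the Pearson correlation of log2 CPM with Scgb1a1 over the 6 libraries, each group centred on its own mean, among 11152 other genes of at least 5 CPM. The first 8 were Casp4, Cbs, Nfe2l2, Bag3, Wfdc1, Tmem55a, Fam118b and Opa3, with r of at least 0.996. Of the 11152 genes, 282 reached at least 0.95. With only 6 libraries, a high r is given as a description only. Of the other airway secretory genes, Cyp2f2 ranked highest (r = 0.988, rank 44), followed by Bpifb1 (0.983, rank 69) and Muc5b (0.978, rank 107), and Reep6 lowest (0.749, rank 2021). The points share the low values of Control 3.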

How the data were processed

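RNA was sequenced from 6 libraries, 3 labelled Grp78KO and 3 Control, made with the NEBNext Ultra RNA kit and read as pairs, per the labels' protocols. The authors deposited raw counts per gene symbol in 1 table. Per the submitters' processing notes, the genome was mm10, and edgeR 3.7 is listed; aligner, read counter and gene models: not given in the sources used here. In each library, genes with 2 counts outnumbered those with 1 count by 1.63 to 1.76 times; whether mates were counted separately was not tested. Strand use in counting is not stated.

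Groups were compared with the quasi-likelihood F test of edgeR 4.0.16 (R 4.3.3), after filterByExpr and TMM scaling, with robust dispersions and no other term than group, with Benjamini-Hochberg adjustment over the 18849 genes tested. SEs were derived from the log2 fold and F (fold over root F). CPM were scaled by TMM. Positions and merged exon lengths came from GENCODE M21, on the same build, and promoters from RefSeq (GRCm38.p6). Scripts were checked on simulated counts. The genes described, the 13 comparison lists and the tests were chosen with earlier results of these data known. Named genes were all 10 described, Hspa5, Sftpc, up to 4 called genes each way per comparison list by lowest adjusted p, and the 8 genes most like Scgb1a1; others (such as Aldh1a1, Clca1, Spdef, Foxj1 and Lbp) were chosen after their values were seen. DESeq2 1.42.0, limma-voom (limma 3.58.1), other scalings and filters, a replicate block and omission of libraries were the alternatives. Within-group deviations of same-numbered libraries correlated across genes at 0.518, 0.208 and 0.377. The value was 0.183 between Control 1 and Grp78KO 2, and 0.142 between Control 2 and Grp78KO 1. Between a library numbered 3 and those of the other group with another number, it ran from -0.437 to -0.187. Deviations within a group sum to 0 and both libraries numbered 3 stood apart, so these values cannot decide whether the numbers pair libraries. The meaning of the numbers is not given. The replicate block was used as an alternative only. Every pair of libraries differed beyond sampling noise (chi-square per gene from 8.87 to 716, counts halved).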

Additional observations from a re-analysis of the deposited data

How the results depend on the processing

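Scgb1a1, Scgb3a1, Scgb3a2, Cbr2, Cyp2f2, Muc5b and Reep6 kept the sign of their log2 fold under all 15 alternatives. With 1 library left out, Bpifa1 ran from -0.288 (without Control 3; -0.14 without Grp78KO 3) to 0.28 and Bpifb1 from -0.111 (without Control 3) to 0.535. Signs also turned, without both libraries numbered 3, for Bpifa1 (-0.438), Bpifb1 (-0.124) and Muc5ac (-0.11). The count of the 10 genes called higher was 0, and 1 (Reep6) with library-size scaling, with the replicate block and without both libraries numbered 3. With 1 library left out it was 0 to 1, and the count called lower, 1 with all libraries, was 0 to 5; it was 6 without both libraries numbered 3. The replicate block changed no other call among the 10, and in the fit scaled to Scgb1a1 that of Reep6 alone. Of 179 tested genes of the comparison lists, 39 were higher and 48 lower; 61 were higher with library-size scaling, 63 without both libraries numbered 3, and 20 to 51 higher and 36 to 54 lower with 1 library left out. Of all tested genes, 36.8% were called, 21.7% with no low-count filter, 56.0% without both libraries numbered 3, and 19.1% to 44.4% with 1 library left out. List counts given for such fits without a share of all tested genes are to be read beside these values. In the fit scaled to Scgb1a1 counts, 3 genes were higher (15.1% of all genes), 4 with the replicate block (22.8%), 5 without both libraries numbered 3 (68.5%) and 0 to 4 with 1 library left out (6.54% to 62.6%); Muc5b had -0.0473 without Control 3 and -0.0327 without Grp78KO 2, and at most 0.108 with any 1 library left out. The cause of these changes was not tested. Depth was ample for all 10 genes: the least abundant, Muc5ac, had at least 794 counts in every library.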

Other observations

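Relatives of the airway secretory genes ranged widely in level. Of 25 secretoglobin, BPI fold and mucin relatives, 12 passed the filter on low counts and 4 (Bpifb2, Bpifb3, Bpifb4 and Bpifb6) had 0 counts in all 6 libraries. Scgb1c1, a secretoglobin gene, had 11.2, 11.3 and 8.49 CPM in Grp78KO 1, 2 and 3, against 21.9, 19.1 and 17.6 CPM in Controls 1, 2 and 3, with no overlap (log2 fold -0.92, SE 0.143, edgeR adjusted p = 0.00326). Of the 12, 4 fell, Bpifb5, Scgb1c1, Muc6 and Muc1, and 2 rose, the phospholipid transfer protein gene Pltp (0.60, edgeR adjusted p = 0.00651) and Muc4. Muc6 was low, with means of 0.262 CPM in the libraries labelled Grp78KO and 0.663 CPM in controls. Muc1 is also among the AT2 markers, all of which were lower. Of all tested genes, 18.8% fell and 18.0% rose. Among the 12 relatives, the number lower was 2 without Grp78KO 2 and 6 without Grp78KO 3 (22.4% of all tested genes). The number higher was 1 without Control 1 or Grp78KO 2 and 5 with library-size scaling (33.0% of all tested genes). Lbp, the lipopolysaccharide-binding protein gene, had 176 ± 5.20 CPM in the libraries labelled Grp78KO and 173 ± 3.88 CPM in controls (SD, n = 3 each). Of the 5 Reep genes other than Reep6, Reep2 rose (0.85, edgeR adjusted p = 0.0348) and Reep3 fell (-0.37, adjusted p = 0.0174). Of the carbonyl reductase relatives of Cbr2, Dcxr fell (-0.38, edgeR adjusted p = 0.0290), and Cbr1, Cbr3 and Cbr4 were not called. None of these 9 Reep and carbonyl reductase genes was called without Control 2, Grp78KO 1 or Grp78KO 2.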
